A study of Homo sapiens with 6 samples.

Results

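The FOS and JUN genes encode the proteins that make up AP-1, and they were followed here in PC3 cells given heme. The family was taken as 7 genes by symbol (FOS, FOSB, FOSL1, FOSL2, JUN, JUNB and JUND) out of 33514 symbols in the count tables. All 7 passed the filter on low counts that left 16209 genes for testing. PC3 is a human prostate cancer cell line that came from a bone metastasis. RNA was sequenced from untreated cells (control) and from cells whose medium held 50 µM heme, the iron-porphyrin group of hemoglobin, for 2 h or for 4 h, with 2 libraries in each of the 3 groups. All cells grew in RPMI medium with fetal bovine serum and antibiotics, and the labels name no vehicle for the controls. Whether the 2 libraries of a group came from different cultures is not said, so p-values reflect library-to-library spread, which may be technical only.

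AP-1 is a dimer of basic leucine zipper (bZIP) proteins that binds the sequence TGANTCA, where N is any base. FOS proteins cannot pair with themselves and need a JUN protein as partner, whereas JUN proteins can also pair with each other. FOS, FOSB, JUN and JUNB are classic immediate early genes: growth factors and stress induce them through MAP kinases acting on factors already present, without new protein synthesis, and their unstable messages decay soon after. FOSL1 (Fra-1) and FOSL2 (Fra-2) follow more slowly in many cell types and lack the transactivation domain of FOS, and FOSL1 is abundant in many invasive carcinoma lines.

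After 2 h of heme, 6 of the 7 genes had higher transcript levels than control, between 1.75-fold (FOSL2) and 5.57-fold (FOSB), and FOSL1, the gene with the highest level of the 7, did not pass the test. After 4 h none of the 7 passed the test against control. The 6 genes that had been higher at 2 h were all lower at 4 h than at 2 h. The response was broad: 15.9% of all tested genes were called higher at 2 h and 14.1% lower at 4 h than at 2 h. Only 0.0308% were called in either direction at 4 h against control.

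Upstream sequences are shown for every family gene with a RefSeq upstream sequence, whatever its change. FOSL1, the gene not called at 2 h, had none, so no window of an uncalled member is there for comparison. Elements in such regions are the classic route of immediate early gene induction, and the windows can be compared with each other. Each line gives the 250 bases just before the RefSeq gene start on GRCh38.p14, read 5′ to 3′ on the gene's own strand. Capitals mark TGACGT, the core of the cyclic AMP response element (CRE) bound by CREB and ATF proteins, the full CRE TGACGTCA, the site TGACATCA through which JUN-ATF2 dimers act on JUN, and the TATA box TATAAA. They lie at chr14:75278578-75278827 (FOS, plus strand), chr19:45467746-45467995 (FOSB, plus), chr2:28392608-28392857 (FOSL2, plus), chr1:58784048-58784297 (JUN, minus), chr19:12791236-12791485 (JUNB, plus) and chr19:18281623-18281872 (JUND, minus).
FOS: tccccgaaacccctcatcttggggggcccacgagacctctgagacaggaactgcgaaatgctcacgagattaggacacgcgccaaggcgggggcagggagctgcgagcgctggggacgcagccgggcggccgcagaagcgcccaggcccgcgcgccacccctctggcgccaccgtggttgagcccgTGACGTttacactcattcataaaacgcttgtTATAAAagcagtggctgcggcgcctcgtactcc
FOSB: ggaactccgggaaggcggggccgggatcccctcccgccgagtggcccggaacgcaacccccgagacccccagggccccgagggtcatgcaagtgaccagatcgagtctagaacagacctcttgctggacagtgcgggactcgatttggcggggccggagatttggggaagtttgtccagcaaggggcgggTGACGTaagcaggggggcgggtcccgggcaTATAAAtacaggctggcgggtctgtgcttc
FOSL2: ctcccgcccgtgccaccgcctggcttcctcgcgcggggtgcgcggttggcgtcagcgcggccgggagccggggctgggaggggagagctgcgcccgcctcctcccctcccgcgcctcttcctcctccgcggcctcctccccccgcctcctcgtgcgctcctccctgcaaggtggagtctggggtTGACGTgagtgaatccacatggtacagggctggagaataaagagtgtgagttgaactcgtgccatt
JUN: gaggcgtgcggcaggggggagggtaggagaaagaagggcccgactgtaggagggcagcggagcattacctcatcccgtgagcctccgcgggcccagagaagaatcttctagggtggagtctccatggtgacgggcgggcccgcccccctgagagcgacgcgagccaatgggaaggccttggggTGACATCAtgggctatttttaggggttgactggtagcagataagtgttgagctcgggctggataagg
JUNB: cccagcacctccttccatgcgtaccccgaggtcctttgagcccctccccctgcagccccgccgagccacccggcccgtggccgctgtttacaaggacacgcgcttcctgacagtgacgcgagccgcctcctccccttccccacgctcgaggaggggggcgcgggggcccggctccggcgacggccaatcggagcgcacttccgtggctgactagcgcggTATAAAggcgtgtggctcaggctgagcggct
JUND: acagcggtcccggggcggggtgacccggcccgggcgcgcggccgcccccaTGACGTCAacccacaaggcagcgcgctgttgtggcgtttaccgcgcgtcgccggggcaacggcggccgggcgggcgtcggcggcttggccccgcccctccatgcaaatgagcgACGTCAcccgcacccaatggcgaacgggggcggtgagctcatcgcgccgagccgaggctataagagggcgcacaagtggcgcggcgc

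The CRE core TGACGT was present, on either strand, in 4 of these 6 windows, against 7.10% of 35116 windows of the same length in the RefSeq table. In FOS, FOSB and FOSL2 it lay at nearly the same distance from the start, at bases 64 to 59, 60 to 55 and 66 to 61 upstream. JUND held 1 full CRE at bases 200 to 193, which contains the core on both strands, and 1 more core on the other strand at bases 87 to 82; the full CRE occurred in 1.65% of windows. JUN held TGACATCA at bases 67 to 60, a site found in 2.37% of windows. TATAAA lay at bases 33 to 28 in FOS, 30 to 25 in FOSB and 31 to 26 in JUNB, and in 10.7% of windows. Neither TGANTCA (6.57% of windows) nor the CArG box bound by serum response factor (1.16%) occurred in any of the 6. A match describes letters only, and a missing match says only that these letters are not in this window. In GENCODE release 29 the gene models of JUN and FOSL2 begin far enough upstream of the RefSeq start to hold the whole of their windows, that of FOS holds part of its window and that of FOSB its last base.

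The libraries held between 53129375 and 55537611 counts over genes, and expression is given as CPM, counts scaled to library sizes normalized by the TMM method. The marker sums that follow are an exception and were scaled to total gene counts without TMM. The epithelial keratin and adhesion genes were present throughout, summing to between 2138 and 2493 CPM in every library, while KLK3 and FOLH1, luminal prostate genes, had 0 counts in all 6 libraries. The 2 h libraries stood apart from the other 4 on the first principal component, which held 58.0% of the variance, and 5136 of 16209 genes (31.7%) passed the test at 2 h against 5 (0.0308%) at 4 h. The level of some genes that also mark other cell types moved with the 2 h group. Fibroblast markers summed to between 25.7 and 28.8 CPM in control, 43.0 and 49.6 CPM at 2 h and 24.6 and 32.4 CPM at 4 h, and COL1A1, the 1 of 5 that passed the filter, rose at 2 h (log2 0.70, edgeR adjusted p = 0.00170). Endothelial markers summed to between 19.7 and 19.97 CPM in control, 34.1 and 41.5 CPM at 2 h and 18.2 and 19.7 CPM at 4 h; PECAM1 rose at 2 h (log2 0.86) and CDH5, the other of the 2 tested among 3, was not called. Blood cell markers summed to between 42.2 and 46.0 CPM in control, 47.5 and 55.1 CPM at 2 h and 43.5 and 44.4 CPM at 4 h; CD14 rose at 2 h (log2 1.87) and CD68 was not called, the 2 tested among 5. The defining markers PTPRC, CD3E, DCN, LUM, COL1A2, PDGFRA and VWF had between 0 and 7 counts in every library, and HBA1, HBA2 and HBB had 0 in all. The part of these other markers in the results on AP-1 genes was not tested.

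Per kilobase of transcript, FOSL1 was by far the highest of the 7 in every group, at 313 ± 27.1 CPM per kb in control cells (SD, n = 2, as for all group means here). JUNB followed at 51.7 ± 4.85, then JUN at 23.7 ± 0.994, FOSL2 at 22.1 ± 0.674 and JUND at 19.5 ± 2.84 CPM per kb, and FOSB and FOS stood lowest at 1.45 ± 0.0531 and 1.44 ± 0.0325. FOS and FOSB overlapped in their control libraries, and the gap between FOSL2 and JUND was smaller than the SD of JUND. After 2 h the order was FOSL1 (353 ± 9.05 CPM per kb), JUNB (99.5 ± 13.5), JUN (56.4 ± 7.10), JUND (46.6 ± 5.20), FOSL2 (38.6 ± 1.40), FOSB (8.08 ± 0.00784) and FOS (2.68 ± 0.334). JUND thus stood above FOSL2 at 2 h, and FOSB and FOS no longer overlapped. After 4 h the order was that of control cells, with JUN at 29.8 ± 2.05 CPM per kb above FOSL2 at 22.2 ± 0.785 and JUND at 20.4 ± 5.47, and with overlapping libraries for FOSL2 and JUND and for FOSB and FOS. These levels rest on the merged exon length of the GENCODE gene, which can exceed that of the transcript in use.

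**Figure D1:**
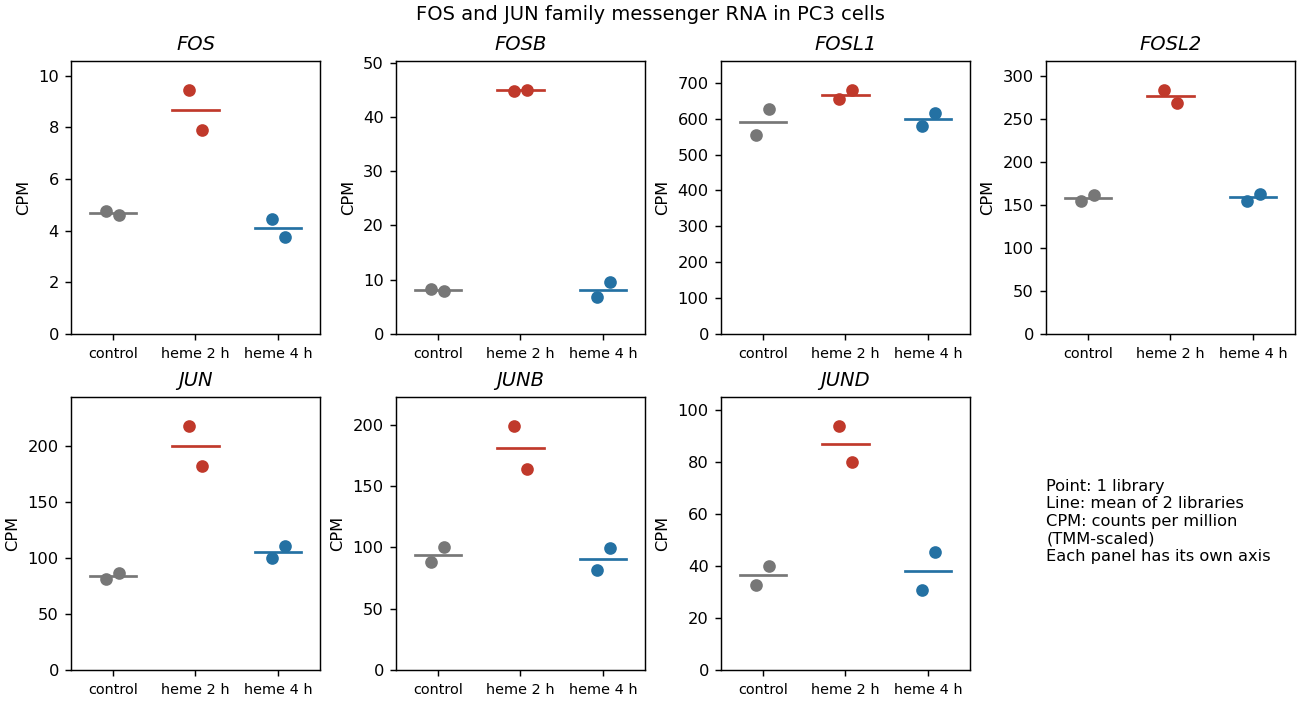
CPM of each FOS and JUN family gene (vertical axis, separate scale per gene, starting at 0) in control cells and after 2 h and 4 h of heme; points are single libraries and lines are means of 2 libraries. In all 7 panels both 2 h libraries lie above both control libraries, by the smallest share of the control level in FOSL1. How many of all tested genes are separated likewise is not given here.

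FOSB showed the largest change of the family. This subunit can activate strongly as a dimer with JUN proteins, and its shorter splice form lacks the activating end; the counts do not separate the forms. FOSB (ENSG00000125740.13) lies on the plus strand of chromosome 19 from 45467995 to 45475179 on GRCh38. It had 44.9 and 44.9 CPM in the 2 h libraries, against 8.27 and 7.86 CPM in the control libraries. The groups were far apart, with nearly equal 2 h libraries. The fitted change was log2 2.48 (SE 0.16, a 5.57-fold rise with a 95% interval from 4.41 to 7.02), at an adjusted p of 2.27e-07 (edgeR, quasi-likelihood test), adjusted by Benjamini-Hochberg over all 16209 genes like every adjusted p below. It was the 75th largest log2 change among those genes. In bulk RNA, more cells expressing a gene and more RNA per cell cannot be told apart. ERCC1 overlaps FOSB on the other strand with 0 shared exonic bases, and its level was not called as changed (log2 0.12).

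FOS, the founding member of the family, was the least abundant of the 7 in counts. FOS (ENSG00000170345.9) lies on chromosome 14 from 75278774 to 75282230 on the plus strand. It had 9.43 and 7.90 CPM in the 2 h libraries, against 4.74 and 4.60 CPM in the control libraries. Both 2 h libraries were higher than both controls, and the raw counts behind them were 535 and 455 at 2 h against 246 and 248 in control. FOS rose 1.86-fold (log2 0.89, SE 0.17, edgeR adjusted p = 0.00157).

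FOSL2, whose product Fra-2 pairs with JUN proteins, rose 1.75-fold. FOSL2 (ENSG00000075426.11) lies on chromosome 2 from 28392448 to 28417312 on the plus strand. It had 283 and 269 CPM in the 2 h libraries, against 155 and 161 CPM in the control libraries. The replicates differed by little and the groups did not overlap (log2 0.81, SE 0.09, edgeR adjusted p = 3.12e-05). A separately counted sense intronic transcript within FOSL2, AC104695.3, also rose at 2 h, with raw counts of 57 and 42 in the 2 h libraries against 5 and 10 in the control libraries (log2 2.60, SE 0.55, edgeR adjusted p = 0.00270). It shares 0 exonic bases with FOSL2 and was named after its values were seen.

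FOSL1, which encodes Fra-1, moved little. FOSL1 (ENSG00000175592.8) lies on chromosome 11 from 65892049 to 65900573 on the minus strand. It had 655 and 679 CPM in the 2 h libraries, against 555 and 627 CPM in the control libraries. Both 2 h libraries were above both controls, but the gap to the nearer control was smaller than that between the controls. The fitted change was log2 0.17 (SE 0.09), a ratio of 1.13 with a 95% interval from 0.985 to 1.29, and it was not called (edgeR adjusted p = 0.164). The 655 and 679 CPM came from 37147 and 39099 counts, so depth was not the limit here, and the interval leaves room for a rise of up to 1.29-fold.

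Among the JUN genes, each a single-exon gene, all 3 rose. JUN encodes c-Jun, the main substrate of the JNK kinases and an activator of its own gene. JUN (ENSG00000177606.6) lies on chromosome 1 from 58780788 to 58784327 on the minus strand. It had 218 and 182 CPM in the 2 h libraries, against 81.6 and 86.5 CPM in the control libraries. Both 2 h libraries were more than 90 CPM above the higher control, and JUN rose 2.38-fold (log2 1.25, SE 0.11, edgeR adjusted p = 3.07e-06).

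JUNB, which can oppose JUN at some promoters, rose 1.92-fold. JUNB (ENSG00000171223.5) lies on chromosome 19 from 12791496 to 12793315 on the plus strand. It had 198 and 164 CPM in the 2 h libraries, against 87.8 and 100.3 CPM in the control libraries. The groups did not overlap (log2 0.94, SE 0.12, edgeR adjusted p = 8.37e-05). HOOK2 shares 259 exonic bases with JUNB on the other strand, and since the strand setting of the counting is not given, their reads cannot be told apart there; HOOK2 had 75.9 ± 7.77 CPM at 2 h and 70.5 ± 0.145 CPM in control and was not called (edgeR adjusted p = 0.502).

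JUND, in many cells the most evenly expressed JUN gene, rose 2.39-fold, the largest change of the 3 by a margin far inside the SE. JUND (ENSG00000130522.5) lies on chromosome 19 from 18279760 to 18281622 on the minus strand. It had 93.6 and 79.9 CPM in the 2 h libraries, against 32.6 and 40.1 CPM in the control libraries. The lower 2 h library stood well above the higher control, although the control replicates of JUND were more uneven than those of JUN (log2 1.26, SE 0.16, edgeR adjusted p = 7.27e-05).

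Of the 7 genes, 6 were thus called higher at 2 h and 0 lower, where 15.9% of all tested genes were called higher and 15.8% lower. The median log2 change of the 7 was 0.94 at 2 h, against 0.0171 over all 16209 genes. The 6 that rose lay above between 89.0% (FOSL2) and 99.5% (FOSB) of tested genes in log2 change, and FOSL1 above 62.4%. Leaving out any 1 library kept the count at 6, with adjusted p-values for FOS, the weakest of the 6, of at most 0.0172 in edgeR (without control replicate 2). The lone library of the reduced group is then assumed to vary like those of the other groups.

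**Figure D2:**
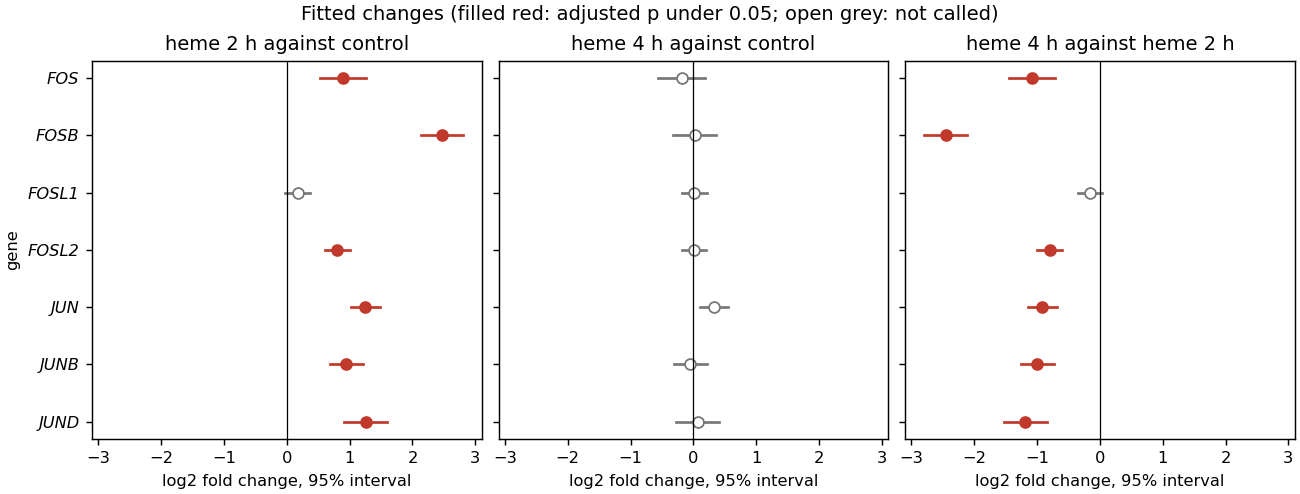
Fitted log2 fold change (horizontal axis) of each family gene in each of the 3 contrasts, with bars for the 95% interval of the edgeR fit. The 2 h intervals of all genes but FOSL1 lie above 0, and the 4 h intervals against control include 0 for all genes but JUN.

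**Figure D3:**
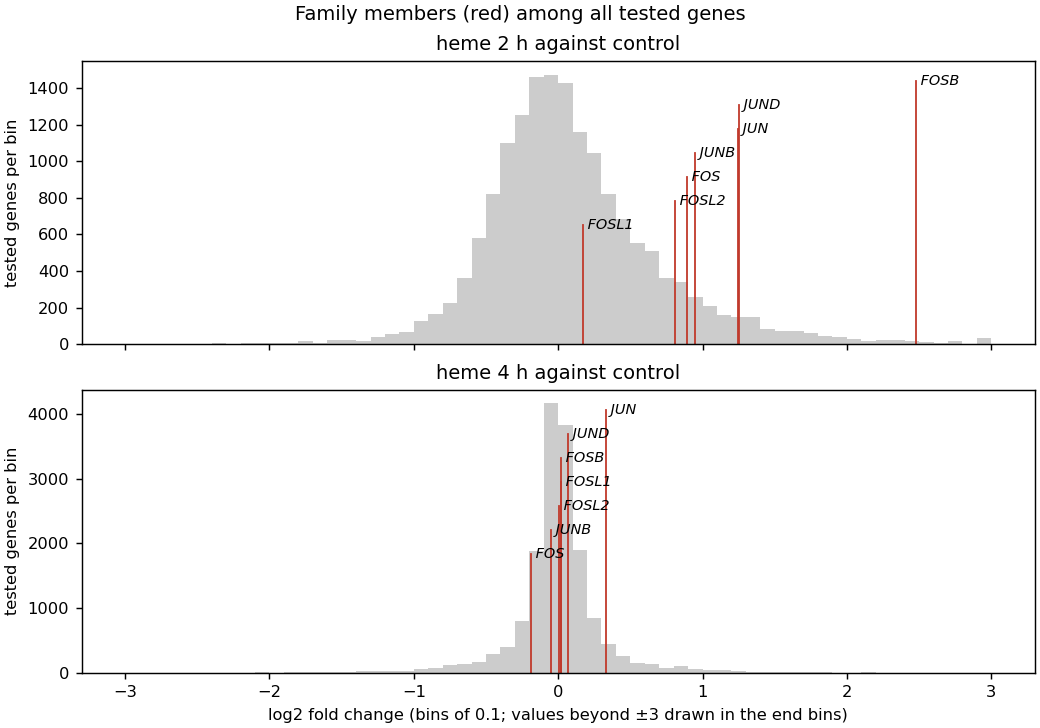
Distribution of log2 fold changes over all 16209 tested genes at 2 h and at 4 h, each against control, as genes per bin of log2 change (vertical axis), with the 7 family genes drawn as vertical lines whose heights only spread the names. At 2 h the line of FOSB stands far to the right and that of FOSL1 close to the centre, and at 4 h all 7 lie between -0.19 (FOS) and 0.33 (JUN).

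The makeup of each subfamily was described per kilobase, as shares of its summed CPM per kb. FOSL1 made up 87.3% and 88.2% of the FOS subfamily in the 2 h libraries, against 92.3% and 92.9% in the control libraries. FOSL2 made up 9.96% and 9.22% at 2 h, against 6.78% and 6.30% in control, and FOSB 2.03% and 1.98%, against 0.468% and 0.396%. FOS stayed below 1% in every library. The FOS subfamily summed to 403 ± 7.32 CPM per kb at 2 h and 338 ± 27.7 CPM per kb in control, while the JUN subfamily summed to 203 ± 25.8 CPM per kb at 2 h and 94.9 ± 8.68 CPM per kb in control. The FOS sum was thus dominated by a gene that was not called, and the JUN sum consisted of genes that all rose. Within the JUN subfamily JUNB made up 49.1% ± 0.413 at 2 h and 54.4% ± 0.126 in control, and JUN 27.9% ± 0.0448 at 2 h and 25.1% ± 1.25 in control. At 4 h the FOS subfamily shares were near those of control (FOSL1 92.7% ± 0.0237, against 92.6% ± 0.433 in control), whereas JUNB made up 49.8% ± 0.281 and JUN 29.9% ± 2.27 of the JUN subfamily. No test was run on these shares.

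**Figure D4:**
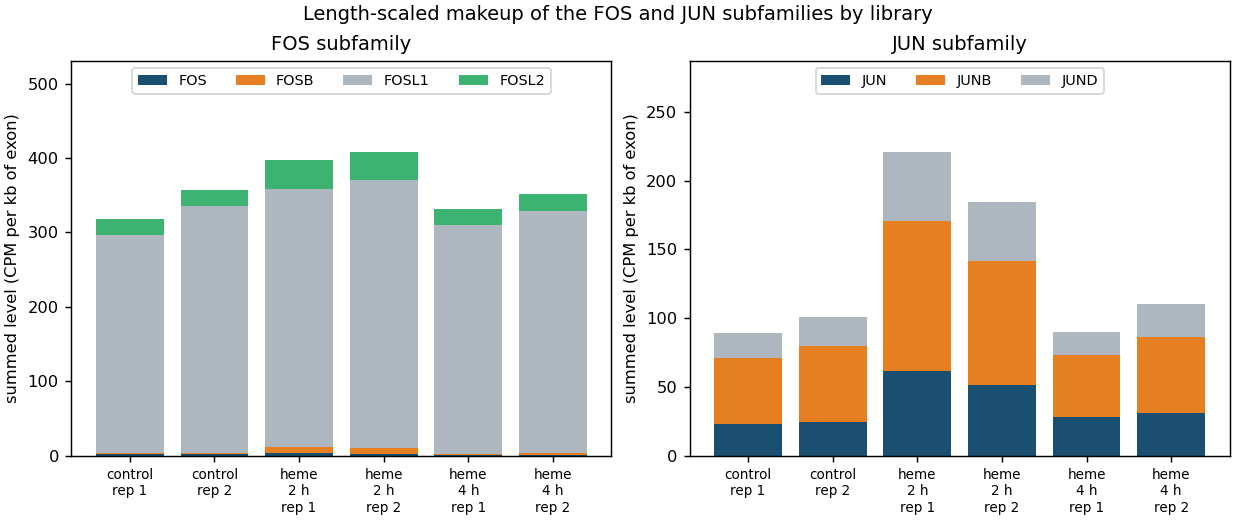
Summed level (vertical axis, CPM per kb of exon, from 0) of the FOS subfamily and of the JUN subfamily, with 1 bar per library stacked by gene. FOSL1 takes at least 87.3% of the FOS subfamily in every library, and JUNB between 48.8% and 54.5% of the JUN subfamily.

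At 4 h against the same controls, 0 of the 7 genes were called by edgeR, where 0.0308% of all tested genes were called in either direction (0.0247% higher and 0.00617% lower). With DESeq2 the count was also 0, and 1 of 7 had an unadjusted p under 0.05, against 3.60% of all tested genes. That gene was JUN, with 100.4 and 111 CPM in the 4 h libraries, against 81.6 and 86.5 CPM in the control libraries. Both 4 h libraries lay above both controls (log2 0.33, SE 0.11, ratio 1.26 with a 95% interval from 1.07 to 1.47, unadjusted p = 0.00835 and adjusted p = 0.99995 in edgeR). FOS had 4.45 and 3.74 CPM in the 4 h libraries, against 4.74 and 4.60 CPM in the control libraries. It was the other gene whose groups did not overlap, and its 95% interval ran from log2 -0.57 to 0.19. The share of all tested genes without overlap is not given here.

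The remaining 5 genes had overlapping groups at 4 h. FOSB had 6.74 and 9.59 CPM in the 4 h libraries, against 8.27 and 7.86 CPM in the control libraries, so that both controls lay between the 4 h libraries. JUND likewise had 30.8 and 45.2 CPM in the 4 h libraries, on either side of 32.6 and 40.1 CPM in the control libraries. JUNB had 81.8 and 99.6 CPM at 4 h, against 87.8 and 100.3 CPM in control. FOSL2 had 155 and 163 CPM at 4 h, against 155 and 161 CPM in control, and FOSL1 579 and 616 CPM, against 555 and 627 CPM. The 95% intervals of these 5 log2 changes ran at their widest from -0.34 to 0.41 (JUND) and at their narrowest from -0.19 to 0.20 (FOSL2). The median log2 change of the 7 was 0.017, against -0.0028 over all tested genes.

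The direct comparison of 4 h with 2 h shares its 2 h libraries with the comparison above. Of the 7 genes, 6 were lower at 4 h than at 2 h and 0 higher, where 14.1% of all tested genes were called lower. FOSB averaged 8.16 ± 2.01 CPM at 4 h and 44.9 ± 0.0435 CPM at 2 h and was 5.49-fold lower (log2 -2.46, SE 0.16, edgeR adjusted p = 1.66e-07). FOS averaged 4.10 ± 0.503 CPM at 4 h and 8.67 ± 1.08 CPM at 2 h (log2 -1.08, SE 0.17, edgeR adjusted p = 4.25e-04). These 2 had the lowest levels per kilobase of the family at both times. JUND fell by 1.19, JUNB by 0.997, JUN by 0.92 and FOSL2 by 0.80 on the log2 scale, with edgeR adjusted p-values between 3.08e-05 and 1.04e-04. FOSL1 averaged 598 ± 25.9 CPM at 4 h and 667 ± 17.1 CPM at 2 h and was not called (log2 -0.16, SE 0.09, edgeR adjusted p = 0.216). All 4 h libraries lay below all 2 h libraries for each of the 7 genes. The share of all tested genes separated in this way is not given here.

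For each gene, the 3 genes whose log2 CPM lay closest over the 6 libraries, each gene centred on its control mean, were picked from 11924 genes with a mean of at least 2 CPM. FOSL2 had the closest neighbours of the genes that rose, BRD2, a BET bromodomain protein (Euclidean distance 0.0645 on the log2 scale), and CITED2, a coregulator that binds CBP and p300 (0.0687), followed by LINC00649. FOSB was nearest to NAV2 (0.243), then to NR4A1, an orphan nuclear receptor and immediate early gene (0.454), and PRR5L (0.551). FOS was nearest to ELOA-AS1, MAP2K5 and LINC00847 (0.163 to 0.171), and JUN to APOLD1, ARHGEF16 and NUAK2 (0.157 to 0.181). JUNB was nearest to CCDC88B, UBALD2 and ZCCHC24 (0.121 to 0.155), and JUND to CEACAM19, SLC6A9 and ERBB2 (0.208 to 0.244). FOSL1 was nearest to SENP3, WDSUB1 and AC005332.7 (0.0832 to 0.0902), which like it were not called at 2 h. No member was among the nearest genes of another because members were left out of the candidates.

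Of 13 other bZIP genes whose products pair with FOS or JUN proteins, 11 could be tested, and 6 rose at 2 h and 0 fell, with a median log2 change of 0.56, where 15.9% of all tested genes were called higher and 15.8% lower. BATF and MAF had at most 1 count per library. ATF3, a stress-induced partner of JUN, averaged 48.3 ± 7.25 CPM at 2 h and 15.4 ± 0.354 CPM in control (log2 1.65, SE 0.14, edgeR adjusted p = 2.22e-06). JDP2, which represses AP-1 sites as a dimer with JUN, averaged 10.8 ± 1.22 CPM at 2 h and 3.05 ± 0.114 CPM in control (log2 1.82, SE 0.18, edgeR adjusted p = 9.28e-06). The small MAF genes MAFF (log2 0.79) and MAFG (log2 0.56) also rose, as did CREB5 (log2 0.60), a gene outside the naming rule that was named after its values were seen. MAFK (log2 0.09), ATF2 (0.09), ATF7 (0.07), BATF2 (0.10) and BATF3 (-0.23) were not called. Without control replicate 1 the count was 4, MAFG and CREB5 missing the threshold. At 4 h 0 of 11 were called by edgeR, against 0.0308% of all tested genes, and 0 had an unadjusted p under 0.05, against 3.60%. Against 2 h all 6 that had risen fell, where 14.1% of all tested genes were called lower. MAFG barely passed there (log2 -0.33, edgeR adjusted p = 0.0435, against 0.0541 with DESeq2).

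Of 14 tested genes for serum response factor, its ternary complex and MRTF cofactors, MEF2, CREB and the CRTC coactivators, 3 rose and 2 fell at 2 h, with a median log2 change of -0.12. These counts are near the shares over all tested genes, 15.9% higher and 15.8% lower. MEF2D (log2 0.70, edgeR adjusted p = 0.00112), CRTC1, a CREB coactivator (log2 0.64, adjusted p = 0.00210), and SRF (log2 0.30, adjusted p = 0.0273) rose, and ELK3, a ternary complex factor that can repress, fell (log2 -0.61, adjusted p = 0.00113). MKL1, an SRF cofactor named after its values were seen, fell as well (log2 -0.35). ELK1 (log2 0.22), CREB1 (-0.11), ATF1 (-0.18) and MEF2C (0.40) were not called. The call of SRF was lost without control replicate 1 (log2 0.24), control replicate 2 (0.34) or 2 h replicate 1 (0.22). SRF lost its call under a correction for GC content and length (log2 0.09, edgeR adjusted p = 0.325), and the count of genes that fell was 1 without either control library, 5 without 2 h replicate 2 and 4 under that correction. At 4 h 0 of 14 were called by edgeR, against 0.0308% of all tested genes, and 1 had an unadjusted p under 0.05, against 3.60%.

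Of 19 genes for MAP kinases, the kinases that activate them and the MSK kinases below them, 4 rose and 1 fell at 2 h (median log2 0.10), against 15.9% and 15.8% of all tested genes, so that the count that rose is near the share over all genes. MAP2K5, the activator of ERK5, averaged 32.0 ± 3.47 CPM at 2 h and 16.6 ± 0.0381 CPM in control (log2 0.95, edgeR adjusted p = 1.05e-04). RPS6KA5, which encodes MSK1, a kinase of CREB and histone H3, rose by log2 0.88, MAP2K6, an activator of p38, by 0.74, and MAPK13, a p38 kinase, by 0.39. MAP2K4, a kinase of JNK named after its values were seen, fell (log2 -0.34, edgeR adjusted p = 0.0363). The genes for ERK1 (MAPK3) and for the JNK kinases (MAPK8, MAPK9 and MAPK10) were not called. Their log2 changes were 0.33, -0.27, -0.03 and 1.39. The value for MAPK10 rests on few raw counts, 24 and 16 in the 2 h libraries against 8 and 6 in the control libraries. The count of genes that rose was 2 without either control library. The count that fell was 0 without either control library or without 2 h replicate 1, 2 without either 4 h library, without the filter or with only the compared groups, 3 without 2 h replicate 2 and 4 under the GC and length correction. At 4 h 0 of 19 were called by edgeR, against 0.0308% of all tested genes, and 1 had an unadjusted p under 0.05, against 3.60%. RNA levels do not show kinase activity.

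Of 10 genes that govern decay of FOS and JUN messages and proteins, 1 rose and 2 fell at 2 h (median log2 -0.12), near the 15.9% called higher and 15.8% called lower among all tested genes. ZFP36, which encodes tristetraprolin, a protein that speeds decay of AU-rich messages, averaged 21.1 ± 3.06 CPM at 2 h and 14.6 ± 2.31 CPM in control (log2 0.53, edgeR adjusted p = 0.0148). FBXW7, a ubiquitin ligase subunit that acts on c-Jun, fell (log2 -0.62, edgeR adjusted p = 0.00171), as did HNRNPD, which encodes the AU-rich element binding protein AUF1 (log2 -0.31, edgeR adjusted p = 0.0224). ZFP36 was not called without control replicate 1 or without 2 h replicate 1, and HNRNPD not under the GC and length correction (log2 -0.07, adjusted p = 0.452). The count that rose was 2 under that correction. The count that fell was 1 without either control library or without 2 h replicate 1, and 4 without 2 h replicate 2. COP1 (log2 -0.09), ITCH (-0.02) and KHSRP (-0.12), which act on JUN proteins or on AU-rich messages, were not called. At 4 h 0 of 10 were called by edgeR, against 0.0308% of all tested genes, and 0 had an unadjusted p under 0.05, against 3.60%.

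Of 24 tested genes described as AP-1 targets in other cells, 9 rose and 4 fell at 2 h, with a median log2 change of 0.23, where 15.9% of all tested genes were called higher and 15.8% lower. The count that fell is near that share. HBEGF, an EGF receptor ligand, averaged 822 ± 41.1 CPM at 2 h and 458 ± 13.9 CPM in control (log2 0.84, SE 0.10, edgeR adjusted p = 3.90e-05). IL6 averaged 740 ± 37.0 CPM at 2 h and 537 ± 19.9 CPM in control (log2 0.46, edgeR adjusted p = 0.00314). MMP9, a matrix protease, rose by log2 1.03 with uneven 2 h libraries (20.6 ± 7.26 CPM at 2 h and 10.1 ± 1.45 CPM in control). The other 6 that rose, PLAU, AREG, TGFB1, VEGFA, LIF and HMGA1, did so by log2 0.25 to 0.46. IVL, an epidermal differentiation gene (log2 -1.95), and MMP3 (log2 -0.81) fell from low levels. CCND1 (log2 -0.32) and GADD45A (log2 -0.34) fell as well, from higher levels. CXCL8 (log2 -0.11) and MMP1 (0.18) were not called. The counts rested on the controls: without control replicate 1, 5 rose and 1 fell, and without control replicate 2, 3 rose and 1 fell; without 2 h replicate 1, 2 fell. VEGFA, LIF and HMGA1 lost their calls under the GC and length correction (adjusted p 0.644, 0.0591 and 0.432), and HMGA1 also with DESeq2, with its size factors in edgeR and without the filter. At 4 h 0 of 24 were called by edgeR, against 0.0308% of all tested genes, and 3 had an unadjusted p under 0.05, against 3.60%.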

How the data were processed

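Trizol RNA and an Illumina TruSeq kit were used, per the labels' protocols. The authors deposited raw counts of reads per gene symbol, 1 table per library, with the 5 summary lines that HTSeq writes. The submitters' processing notes name the hg38 build and the tools STAR, Trimmomatic, deepTools and SAMtools. Not given in the sources used here were versions, annotation release, strand setting and read layout. Reads outside genes (5.48% to 6.88%) and ambiguous reads (4.23% to 4.48%) stayed out of library sizes and tests. A count of 0 allows up to 3 counts, 0.0565 CPM in the shallowest library, for counting error only. The chi-square per gene between replicates was 9.11 in control, 34.2 at 2 h and 22.8 at 4 h, above sampling noise.

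Counts were tested with edgeR 4.0.16 in R 4.3.3 (TMM, filterByExpr with a minimum count of 10, 1 two-sided quasi-likelihood fit of the 6 libraries with 3 residual degrees of freedom, Benjamini-Hochberg adjusted p under 0.05 over 16209 genes). The procedure was tested on simulated data. The SE of a log2 change came from its F statistic. Positions and lengths came from GENCODE release 29 on GRCh38, which matched 33164 of 33514 symbols. Upstream sequences came from RefSeq on GRCh38.p14; 6 of the 7 genes matched, all but FOSL1. The family and the lists were chosen with earlier results of these data known, so their counts are descriptions. Named were all 7 members, in each list the 4 genes with the smallest p at 2 h and the 2 at 4 h, and the 3 nearest genes of each member; any others were chosen with their values in view. Some genes of the lists are counted but not reported here by name. The alternatives tried were DESeq2 1.42.0 with its own test, its size factors in edgeR, no filter, only the compared groups, a replicate block and leaving out each library. A correction for GC content and exon length per library (loess span 0.5), with values for 99.3% of tested genes, was chosen after seeing the data.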

Additional observations from a re-analysis of the deposited data

Results flagged for a closer look

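For 6 genes the heme effect at 4 h differed from that at 2 h by a test of the difference itself. That test is the 4 h against 2 h contrast in edgeR already given above, in which the shared controls cancel. It called 28.1% of all tested genes in either direction and 14.1% lower. The difference (4 h minus 2 h, log2) was -1.08 for FOS, -2.46 for FOSB, -0.80 for FOSL2, -0.92 for JUN, -0.997 for JUNB and -1.19 for JUND. In each case both 4 h libraries lay below both 2 h libraries, a separation whose share over all tested genes is not given here.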

How the results depend on the processing

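The count of family genes called stayed at 6 at 2 h, 0 at 4 h and 6 at 4 h against 2 h in all 12 alternatives. The count over all genes at 4 h, 5, was 15 with DESeq2, 10 without the filter, 13 with only the compared groups, 11 with the GC and length correction (chosen after seeing the data), and 4 to 16 when 1 library was left out. Leaving out 1 library gave 2321 to 6254 genes at 2 h (2321 without control replicate 1, 2979 without control replicate 2) and 2199 to 5819 at 4 h against 2 h (2199 without 4 h replicate 1). Uncalled changes at 4 h against control turned sign under the correction in FOSB (-0.028), FOSL2 (-0.020) and JUND (-0.037), and ranged without 1 library from -0.25 to 0.25 in FOSB, -0.068 to 0.11 in FOSL1, -0.025 to 0.042 in FOSL2, -0.20 to 0.082 in JUNB and -0.23 to 0.32 in JUND. The correction gave lower 2 h changes for JUND (log2 0.90), JUNB (0.69) and FOSL1 (0.04); the cause was not tested. With the replicate number as a block, 4809, 6 and 4205 genes passed and no family gene changed its call; MAP2K4 and GADD45A missed the threshold at 2 h. Same-numbered samples did not deviate together (r = -0.091 for control and 2 h, 0.065 for control and 4 h, -0.016 for 2 h and 4 h). Such correlations cannot tell whether same-numbered samples were handled together.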

Other observations

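Of 15 other immediate early genes tested, 13 were higher at 2 h and 0 lower, with a median log2 change of 0.84, against 15.9% of all tested genes called higher. EGR3, a zinc finger factor, averaged 3.62 ± 0.432 CPM at 2 h and 0.168 ± 0.129 CPM in control (log2 4.40, SE 0.41, edgeR adjusted p = 5.37e-06). Of the orphan nuclear receptors, NR4A3 (log2 3.65) had a larger fitted change than every family gene, and NR4A1 (log2 2.42) than every family gene other than FOSB, while DUSP1, a phosphatase of p38 and JNK (log2 1.41), and DUSP5, a phosphatase of ERK (log2 1.25), lay near JUN and JUND. EGR1, usually induced alongside FOS, rose by log2 0.46, and IER2 (log2 0.16) and NR4A2 (log2 0.57) were not called. The count of 13 was 8 without control replicate 1. At 4 h 0 of 15 were called by edgeR, against 0.0308% of all tested genes. An unadjusted p under 0.05 was found there for 1 of the 15, against 3.60% of all tested genes. Against 2 h 12 were lower and 0 higher, where 14.1% of all tested genes were called lower.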
